A study of Mus musculus with 5 samples.

Results

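The genes described here belong to the integrated stress response and the unfolded protein response, and were chosen by name: 11 regulators, 7 enzymes of amino acid and one-carbon synthesis, 11 cytosolic aminoacyl-tRNA synthetases and 11 genes of protein folding and degradation in the endoplasmic reticulum (ER). Of these 40 genes, 39 were measured, of 18193 genes in all. No probe set used here carried the symbol of Eif2s1 alone, so it was not analysed here. A member was represented by the probe set, out of those annotated to its symbol only, with the highest mean over the 5 arrays.

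Transcript levels came from 5 Affymetrix arrays of E14 mouse embryonic stem cells grown on a fibroblast feeder layer with leukaemia inhibitory factor. There were 2 arrays of WT cells and 3 of Trip12 mut/mut cells, in which both copies of the gene of this HECT-type ubiquitin ligase are mutated, and the comparison asks what differs between them. The sources used here do not describe the mutation, the number of clones or whether feeder cells were taken out before RNA extraction. Values are log2 RMA values, and the mutant arrays are called labelled mutant 1, mutant 2 and mutant 3 after their replicate numbers. The labels call the samples biological replicates and give no cultures or clones, so the p-values measure the spread between these samples, which may be technical.

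When unfolded proteins build up in the ER, or amino acids run short, kinases phosphorylate the translation factor eIF2, which slows protein synthesis in general and favours translation of the transcription factor ATF4. ATF4 induces genes for amino acid import and synthesis, for charging tRNAs and, with prolonged stress, for cell death. The ER sensors ATF6 and IRE1, the latter through splicing of Xbp1 RNA, induce chaperones and the machinery of ER-associated degradation. ATF4 is controlled largely at translation and XBP1 by splicing, and neither step is read by these arrays.

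Sequences through which these factors are known to act can be read from promoters of the members. The windows shown are the 250 bases before the annotated transcription start in RefSeq on GRCm38.p6, in the direction of the gene. Herpud1 and Atf4 are shown because they rose over 4 arrays, the first with matches to the motifs searched and the second with none. Asns, Atf3 and Hspa5 show a match in members with positive differences there, Gars a match in a member with a negative difference, and Phgdh a negative difference with no match. Capitals mark a match to the C/EBP-ATF response element, searched as TGATGNAA, to the ER stress response element, searched as CCAAT, any 9 bases and CCACG, or to its second form, searched as ATTGG, any 1 base and CCACG. Each was searched on both strands.
Herpud1, chr8:94386179-94386428, plus strand: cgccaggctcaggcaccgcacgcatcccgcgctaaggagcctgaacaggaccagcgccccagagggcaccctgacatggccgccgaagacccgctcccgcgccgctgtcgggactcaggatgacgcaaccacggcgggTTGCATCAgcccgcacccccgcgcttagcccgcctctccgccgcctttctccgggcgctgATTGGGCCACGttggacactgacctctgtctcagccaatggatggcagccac
Asns, chr6:7693210-7693459, minus strand: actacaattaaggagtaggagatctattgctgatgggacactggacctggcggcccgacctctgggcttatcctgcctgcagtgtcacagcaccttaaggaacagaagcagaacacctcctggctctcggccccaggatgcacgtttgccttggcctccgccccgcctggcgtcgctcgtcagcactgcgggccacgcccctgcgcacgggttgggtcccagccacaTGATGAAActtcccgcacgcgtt
Atf3, chr1:191183334-191183583, minus strand: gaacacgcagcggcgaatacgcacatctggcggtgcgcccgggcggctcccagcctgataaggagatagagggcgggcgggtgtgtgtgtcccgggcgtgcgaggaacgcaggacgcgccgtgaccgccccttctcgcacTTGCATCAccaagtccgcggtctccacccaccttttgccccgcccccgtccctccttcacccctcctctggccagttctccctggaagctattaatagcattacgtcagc
Hspa5, chr2:34771840-34772089, plus strand: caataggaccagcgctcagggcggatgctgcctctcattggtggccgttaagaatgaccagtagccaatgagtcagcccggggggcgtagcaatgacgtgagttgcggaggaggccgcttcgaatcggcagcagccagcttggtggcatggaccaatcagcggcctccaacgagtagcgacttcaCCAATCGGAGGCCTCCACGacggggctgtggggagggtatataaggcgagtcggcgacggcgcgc
Gars, chr6:55037751-55038000, plus strand: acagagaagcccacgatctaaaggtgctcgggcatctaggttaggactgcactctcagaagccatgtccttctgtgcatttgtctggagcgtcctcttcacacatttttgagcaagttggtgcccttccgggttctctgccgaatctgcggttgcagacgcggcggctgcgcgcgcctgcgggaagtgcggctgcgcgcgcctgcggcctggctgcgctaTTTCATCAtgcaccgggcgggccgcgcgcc
Atf4, chr15:80254934-80255183, plus strand: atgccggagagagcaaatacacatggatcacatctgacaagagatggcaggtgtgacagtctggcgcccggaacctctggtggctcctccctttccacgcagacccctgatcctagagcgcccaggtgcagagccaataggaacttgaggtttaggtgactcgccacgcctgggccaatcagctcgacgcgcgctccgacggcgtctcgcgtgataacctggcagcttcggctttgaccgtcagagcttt
Phgdh, chr3:98339970-98340219, minus strand: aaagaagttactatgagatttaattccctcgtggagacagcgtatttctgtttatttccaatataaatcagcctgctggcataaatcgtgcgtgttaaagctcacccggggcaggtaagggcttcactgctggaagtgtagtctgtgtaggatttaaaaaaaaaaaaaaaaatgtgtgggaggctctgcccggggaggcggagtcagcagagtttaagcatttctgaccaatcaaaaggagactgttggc
In Herpud1 the match to TGATGNAA lay on the reverse strand 112 to 105 bases before the start, and the match to the second form of the ER stress response element 52 to 42 bases before it. Asns matched TGATGNAA 23 to 16 bases before the start, Atf3 on the reverse strand 110 to 103 bases before it, and Hspa5 matched the ER stress response element 65 to 47 bases before it. Gars matched TGATGNAA on the reverse strand 30 to 23 bases before the start. The windows of Atf5, which also rose, matched none of the motifs, and Cth, the remaining member that rose, had no window. No matches overlapped each other in the windows shown. Promoter windows were found for 33 of the 39 members. TGATGNAA was in 7 of these (21.2%), against 3.91% of 27025 genes with such a window (3.45% of 32851 windows). The ER stress response element was in 5 (15.2%), against 0.13% of genes (0.113% of windows), and its second form in 1, against 0.037% of genes (0.0304% of windows). The list includes known targets of these factors, so the shares describe how it was made up. A match is not a measured binding site.

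Labelled mutant 1 stood apart from the other mutant arrays. It correlated with the WT arrays at r = 0.9989 and 0.9988 over 45037 probe sets, as the WT arrays did with each other (0.9989). No probe set differed by more than 2-fold between it and a WT array, whereas 293 to 545 did between mutants 2 and 3 and the WT arrays. The Trip12 probe set used read 10.17 and 10.25 in WT, 10.18 in labelled mutant 1, 12.09 in mutant 2 and 12.57 in mutant 3. It may lie outside the mutated part, so it checks the labels only as far as the mutant arrays differ among themselves. Among the members, labelled mutant 1 lay within the range of the WT arrays for 21 of 39, and at most 0.128 outside it for the others. Results are therefore given over all 5 arrays as labelled, and over the 4 arrays without it, with dim genes removed. That array was left out for its values, so p-values over 4 arrays come out too small and support nothing by themselves.

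Embryonic stem cell markers were present on every array: Pou5f1 lay between 12.25 and 12.48 and Nanog between 11.00 and 11.37. Of 12 such genes 2 fell over 4 arrays (16.7%), Utf1 and Lin28a, against 1.34% of all genes, and 0 rose. Of the 12 differences 4 were positive (33.3%, against 57.3% of all genes) and 8 negative, with a median of -0.12. The largest positive one was that of Esrrb, 0.57, which did not pass (limma, adjusted p = 0.0501). Fibroblast markers, listed because feeders are fibroblasts, were detected too. Their mean over 24 genes was 9.86 in both WT arrays, 9.83 in labelled mutant 1, 10.24 in mutant 2 and 10.26 in mutant 3, and the dimmest of them, Fap, reached as low as 5.29, below the median probe set. In the 4-array comparison 6 of 23 rose (26.1%), by limma's adjusted p at a threshold of 0.05, against 3.29% of all genes. The 1 that fell, against 1.34% of all genes, was Cnn1. It differed by -1.095 and had the smallest adjusted p of the list (limma, 0.0402). Of the 23 differences 21 were positive and 2 negative. The median difference of the list was 0.53, against 0.05 over all genes. This marker list was thus higher by its mean and median, though not in every gene, on the same 2 arrays on which the members differed from WT. Its part in them was not tested. In bulk RNA, more cells of a type and more RNA per cell cannot be told apart.

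**Figure D1:**
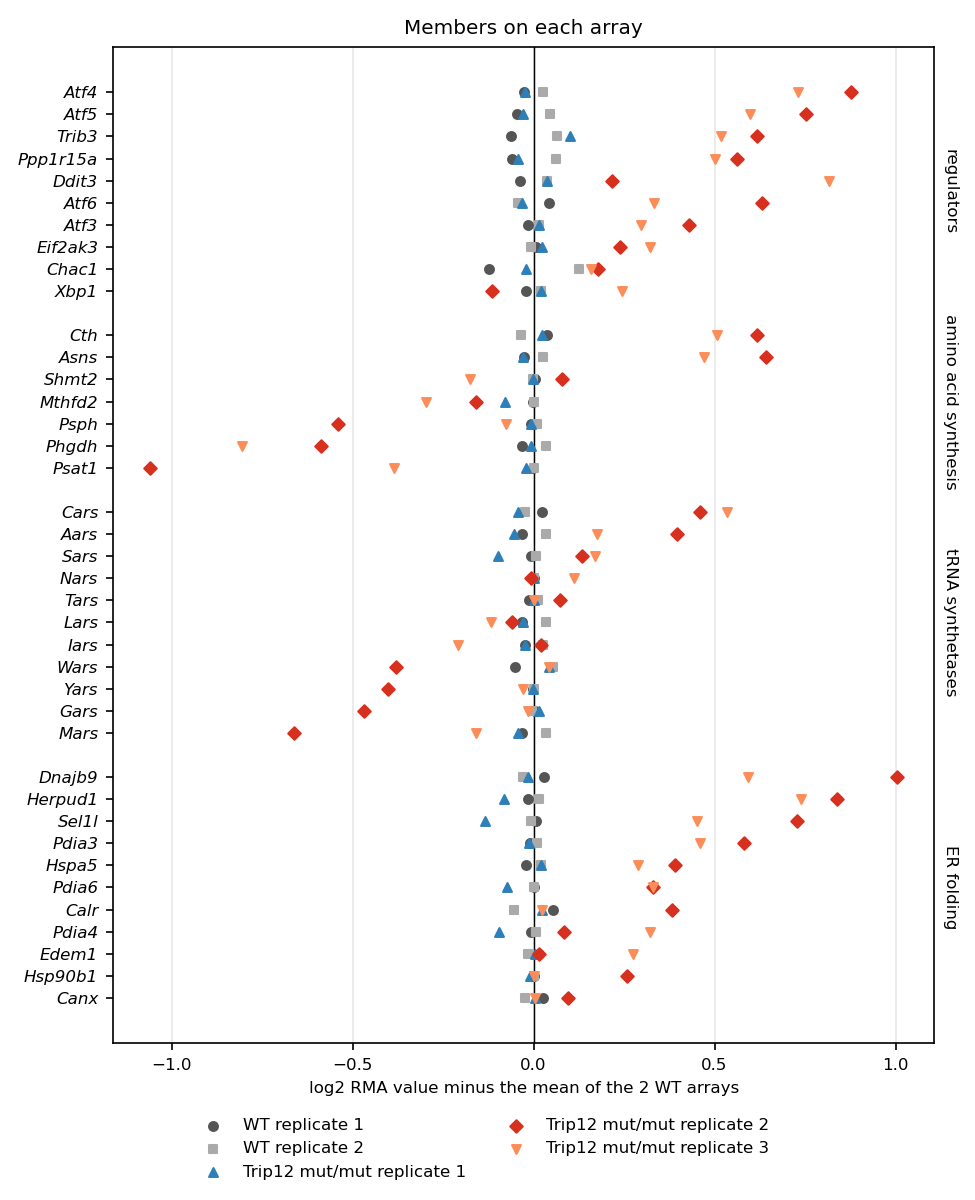
Each of the 39 measured members (rows, by group) on each of the 5 arrays, as the log2 RMA value minus the mean of the 2 WT arrays. Labelled mutant 1 lies with the WT arrays, while mutants 2 and 3 lie to the right for most regulators and ER folding genes and to both sides for the amino acid and tRNA synthetase groups.

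Over all 5 arrays 0 of the 39 members passed the test (limma, Benjamini-Hochberg adjusted p between 0.748 and 0.899), against 0 of all 18193 genes (0%). An unadjusted p below 0.05 was found for 0 members and for 214 genes (1.18%), 0.665% higher and 0.511% lower in the mutant. The mutant and WT arrays did not overlap for 6 members, 15.4% of them, against 12.0% of all genes. Ddit3, Trib3 and Eif2ak3 lay higher (5.73% of all genes did) and Psat1, Mthfd2 and Mars lower (6.29%). In these 6 labelled mutant 1 lay 0.0018 to 0.076 outside the WT range, against a median WT gap of 0.04 over the 39 members. The median difference between mutant and WT cells was 0.33 for the regulators, 0.20 for the ER folding genes, -0.07 for the tRNA synthetases and -0.18 for the amino acid enzymes, against 0.02 over all genes.

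Over the 4 arrays 4 of 39 members rose (10.3%), against 3.29% of 11626 genes higher in the mutant, and 0 fell, against 1.34% lower. The 4 were the transcription factor genes Atf4 and Atf5, the cysteine synthesis gene Cth and the ER gene Herpud1. All 39 measured members had passed the filter on dim genes, and 4.64% of all genes passed the test in either direction. An unadjusted p below 0.05 was found for 19 (48.7%), against 28.8% of all genes. The arrays of the groups did not overlap for 29 members (74.4%), against 57.2% of all genes. Of these, 21 were higher, against 35.2%, and 8 lower, against 22.1%. Each of the 4 calls was lost without the filter on dim genes (limma, adjusted p from 0.0785 to 0.0834), with array weights (0.125 to 0.167) and without either WT array (0.579 and 0.581). The count of members was 12 without mutant 2, where 23.1% of all genes passed, and 23 without mutant 3, where 42.4% did, with the lone mutant array assumed to vary like WT.

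**Figure D2:**
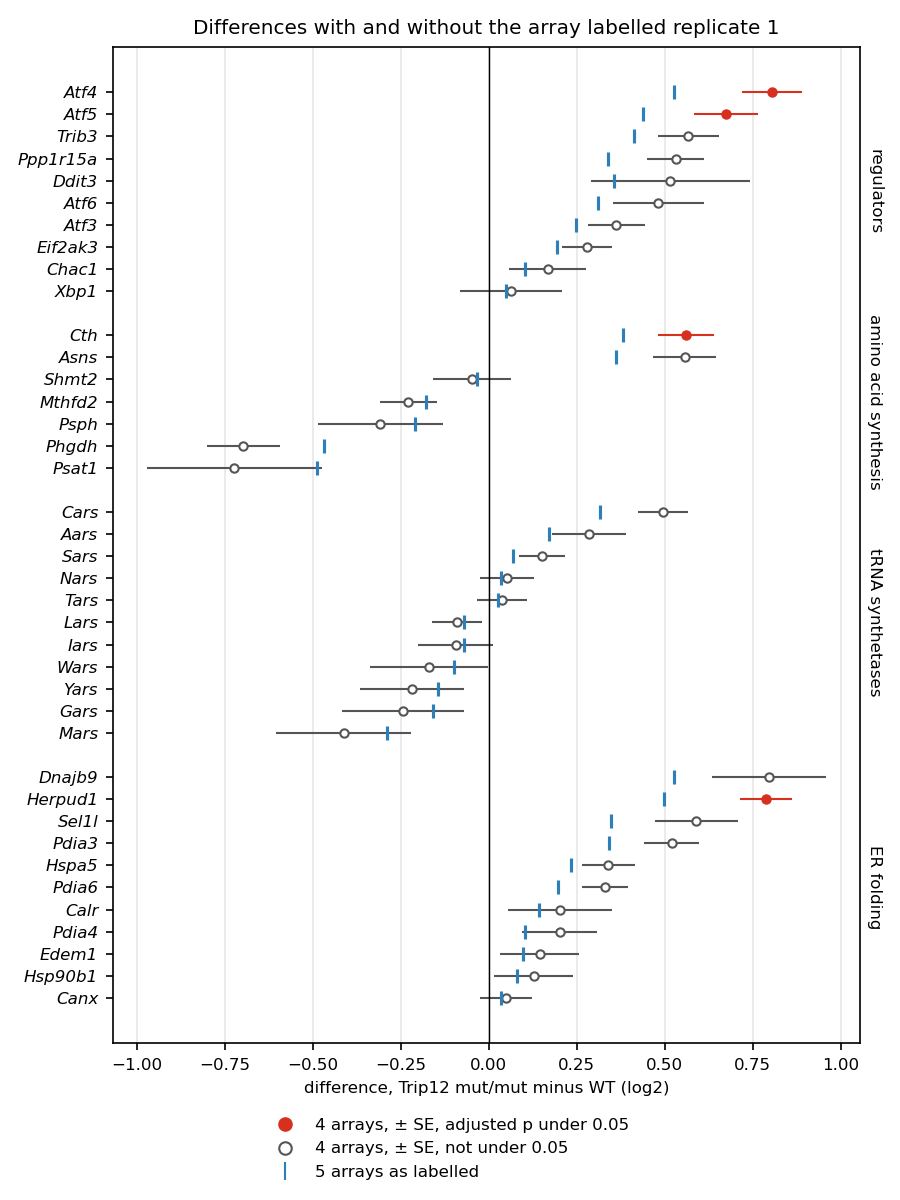
Difference between Trip12 mut/mut and WT for each member on the log2 scale, as points with SE bars over 4 arrays (without labelled mutant 1) and as bars over all 5 arrays. Filled points mark Atf4, Atf5, Cth and Herpud1, the 4 members with an adjusted p under 0.05 over 4 arrays, and each member has the same sign in both comparisons.

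Of 10 measured regulators, 2 rose over 4 arrays (20%, against 3.29% of all genes), 0 fell (against 1.34%) and 8 did not pass. All 10 differences were positive, against 57.3% of all genes, with a median of 0.50 against 0.05 over all genes. Mutants 2 and 3 lay above both WT arrays for 9 of the 10, against 35.2% of all genes. The fibroblast marker list was higher on the same arrays.

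Atf4, the central effector of the integrated stress response, read 10.49 and 10.54 on the WT arrays, 10.49 in labelled mutant 1, 11.39 in mutant 2 and 11.25 in mutant 3. It was 1.75-fold higher over 4 arrays (log2 difference 0.80, SE 0.09, adjusted p = 0.042), and 0.53 higher with an SE of 0.30 over all 5 (adjusted p = 0.748). Another bright probe set of Atf4 read 8.94 and 8.98 in WT, 8.87 in labelled mutant 1, 9.96 in mutant 2 and 9.34 in mutant 3, so that its replicates differed more. With each gene's most variable probe set, which is this one for Atf4, its adjusted p over 4 arrays was 0.123.

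Atf5, a related factor that is also controlled through eIF2, read 8.75 and 8.84 in WT, 8.77 in labelled mutant 1, 9.55 in mutant 2 and 9.39 in mutant 3. The 4-array difference was 0.67 (SE 0.09, adjusted p = 0.048), 1.60-fold, and the 5-array difference 0.44 (SE 0.26, adjusted p = 0.748). Without mutant 2 its adjusted p was 0.073. The WT arrays and labelled mutant 1 lay together, and the other 2 above them.

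Trib3, a pseudokinase that dampens ATF4 signalling, read 7.97 and 8.10 in WT, 8.13 in labelled mutant 1, 8.65 in mutant 2 and 8.55 in mutant 3. Its difference of 0.57 over 4 arrays had an adjusted p of 0.053. The same adjusted p was found for Ppp1r15a, which encodes the GADD34 subunit that directs dephosphorylation of eIF2, with 9.31 and 9.43 in WT, 9.32 in labelled mutant 1, 9.93 in mutant 2 and 9.87 in mutant 3 (difference 0.53). Neither passed, and in both genes mutants 2 and 3 lay above the other 3 arrays.

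Atf3, a stress-induced repressor, read 8.42 and 8.45 in WT, 8.45 in labelled mutant 1, 8.87 in mutant 2 and 8.73 in mutant 3 (difference 0.36, adjusted p = 0.0824). Ddit3, which encodes the pro-apoptotic factor CHOP, read 9.10 and 9.17 in WT, 9.17 in labelled mutant 1, 9.35 in mutant 2 and 9.95 in mutant 3. Its 4-array difference of 0.52 had an SE of 0.23 and did not pass (adjusted p = 0.236), and mutants 2 and 3 lay further from each other than mutant 2 from WT. Ddit3 was the only regulator with such a gap of over 0.5 between mutants 2 and 3.

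The ER sensor gene Atf6 read 7.55 and 7.47 in WT, 7.48 in labelled mutant 1, 8.14 in mutant 2 and 7.84 in mutant 3 (difference 0.48, adjusted p = 0.108). Eif2ak3, the gene of the ER kinase PERK, was higher by 0.28 (adjusted p = 0.1), with mutants 2 and 3 above the other 3 arrays. Chac1, an ATF4 target that degrades glutathione, differed by 0.17, and its WT arrays were 0.248 apart. Xbp1, the transcription factor gene downstream of IRE1, read 10.62 and 10.66 in WT, 10.66 in labelled mutant 1, 10.53 in mutant 2 and 10.89 in mutant 3. Its difference was 0.06 with a 95% interval from -0.34 to 0.47, and it was -0.12 without mutant 3. Other bright probe sets of Xbp1 gave differences of 0.36 and 0.40 over the same arrays, with mutants 2 and 3 above WT in both. The probe sets of Xbp1 therefore disagreed in size, and for mutant 2 also in direction.

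Enzymes of amino acid and one-carbon synthesis lay on both sides of WT. Of 7 measured, 1 rose over 4 arrays (14.3%, against 3.29% of all genes), 0 fell (against 1.34%) and 6 did not pass. Positive differences were found for Cth and Asns and negative ones for Psat1, Phgdh, Psph, Mthfd2 and Shmt2, and the median was -0.23. An unadjusted p below 0.05 was found for 2 higher and 3 lower members, 28.6% and 42.9% of the group, against 19.8% and 8.98% of all genes. Fibroblast markers were higher on mutants 2 and 3 here as well.

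Cth, which makes cysteine from cystathionine, read 10.10 and 10.03 in WT, 10.08 in labelled mutant 1, 10.68 in mutant 2 and 10.57 in mutant 3. It was 1.48-fold higher over 4 arrays (difference 0.56, SE 0.08, adjusted p = 0.0496), and 0.38 higher over 5 (SE 0.20, adjusted p = 0.748). Without mutant 2 its adjusted p was 0.0704. Asns, the asparagine synthetase gene, read 10.45 and 10.50 in WT, 10.45 in labelled mutant 1, 11.12 in mutant 2 and 10.95 in mutant 3. Its difference of 0.56 did not pass (adjusted p = 0.0553), and a second probe set gave 0.63. In both genes mutants 2 and 3 lay above the other 3 arrays.

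The serine pathway genes lay on the other side of WT. Phgdh, the first enzyme of serine synthesis, read 11.33 and 11.39 in WT, 11.35 in labelled mutant 1, 10.77 in mutant 2 and 10.55 in mutant 3. It was 1.62-fold lower over 4 arrays (difference -0.70, SE 0.10, adjusted p = 0.0527), just short of the threshold, and 3 other probe sets gave differences of -0.67, -0.55 and -0.60. All 4 probe sets are of the type whose probes may also match other transcripts, per Affymetrix naming, so these readings are uncertain. The probe sets used for Trib3, Asns, Shmt2 and Wars are of this type too. Those used for Xbp1, Aars, Iars and Canx are of a further type, whose probes several transcripts may share. Psat1, the second enzyme, read 11.13 and 11.14 in WT, 11.11 in labelled mutant 1, 10.08 in mutant 2 and 10.75 in mutant 3. Its difference of -0.72 had an SE of 0.25 (adjusted p = 0.164), and the gap of 0.673 between mutants 2 and 3 was the widest of any member. A second probe set gave -0.21, with mutant 2 at 10.36 close to WT at 10.39 and 10.42, and mutant 3 at 10.02. The probe sets of Psat1 thus placed opposite replicates lowest.

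Psph, the last enzyme of the pathway, was lower by 0.31 (adjusted p = 0.344), with 8.78 in mutant 2 and 9.25 in mutant 3 against 9.31 and 9.33 in WT. Mthfd2, a mitochondrial folate enzyme, read 9.85 on both WT arrays, 9.77 in labelled mutant 1, 9.69 in mutant 2 and 9.55 in mutant 3 (difference -0.23, adjusted p = 0.171). All 3 mutant arrays lay below both WT arrays for Mthfd2. Shmt2, the mitochondrial serine hydroxymethyltransferase, differed by -0.05 with a 95% interval from -0.36 to 0.26, with mutant 2 above and mutant 3 below WT.

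Aminoacyl-tRNA synthetases, which load amino acids onto tRNAs, spread to both sides of WT. In either comparison 0 of 11 passed, against 4.64% of all genes over 4 arrays and 0% over 5. Over 4 arrays 5 differences were positive and 6 negative, with a median of -0.09 that was 0.0023 without mutant 2 and -0.0071 without mutant 3. An unadjusted p below 0.05 was found for 1 member, or 9.09%, against 28.8% of all genes.

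Cars, for cysteine, had the largest positive difference in the group. It read 8.73 and 8.68 in WT, 8.66 in labelled mutant 1, 9.16 in mutant 2 and 9.24 in mutant 3 (difference 0.50, SE 0.07, adjusted p = 0.0512). A second, faint probe set gave -0.03. Aars, for alanine, read 10.77 and 10.84 in WT, 10.75 in labelled mutant 1, 11.20 in mutant 2 and 10.98 in mutant 3 (difference 0.29, adjusted p = 0.18). Sars, for serine, read 10.14 and 10.15 in WT, 10.05 in labelled mutant 1, 10.28 in mutant 2 and 10.31 in mutant 3 (difference 0.15, adjusted p = 0.233), whereas its second probe set gave -0.25. Mutants 2 and 3 lay above the other arrays in these 3 genes for the probe set used.

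Mars, for methionine, read 10.79 and 10.86 in WT, 10.78 in labelled mutant 1, 10.16 in mutant 2 and 10.66 in mutant 3 (difference -0.41, SE 0.19, adjusted p = 0.26). The negative values of this gene and of several others came mainly from mutant 2. Gars, Yars and Wars, for glycine, tyrosine and tryptophan, differed from the WT mean by -0.47, -0.40 and -0.38 in mutant 2, and by -0.02, -0.03 and 0.04 in mutant 3. Lars, Iars, Nars and Tars, for leucine, isoleucine, asparagine and threonine, differed by -0.09, -0.09, 0.05 and 0.04. Of the 7 members whose promoter matched TGATGNAA, 3 were synthetases, Aars, Tars and Gars, with differences of 0.29, 0.04 and -0.24.

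ER folding and degradation genes were on the positive side of WT in all 11 cases over 4 arrays for the probe set used, against 57.3% of all genes. Their median difference was 0.33. For Calr, Canx and Hspa5 another bright probe set gave a negative difference (-0.07, -0.21 and -0.11). Of the 11 genes 1 rose (9.09%, against 3.29% of all genes), 0 fell (against 1.34%) and 10 did not pass. An unadjusted p below 0.05 and a positive difference were found for 6, 54.5% of the group against 19.8% of all genes. Mutants 2 and 3 lay above both WT arrays for 7 of 11 (63.6%), against 35.2% of all genes. With the mean of each gene's probe sets the median was 0.16. Fibroblast markers were higher on the same arrays, and their part in this was not tested.

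Herpud1, a membrane protein that organises ER-associated degradation, read 8.22 and 8.25 in WT, 8.16 in labelled mutant 1, 9.08 in mutant 2 and 8.98 in mutant 3. It was 1.73-fold higher over 4 arrays (difference 0.79, SE 0.07, adjusted p = 0.042), and 0.50 higher over 5 (SE 0.31, adjusted p = 0.748). Its other bright probe set gave 0.61. Dnajb9, a co-chaperone gene that was singled out after its values were seen, had as large a difference (0.80) with an SE of 0.16. It read 10.21 and 10.15 in WT, 10.17 in labelled mutant 1, 11.19 in mutant 2 and 10.77 in mutant 3, and did not pass (adjusted p = 0.0721). Sel1l, the adaptor of the degradation ligase Hrd1, read 9.09 and 9.08 in WT, 8.95 in labelled mutant 1, 9.81 in mutant 2 and 9.54 in mutant 3 (difference 0.59, adjusted p = 0.0699), and 3 other bright probe sets gave 0.32, 0.55 and 0.66. In these 3 genes mutants 2 and 3 lay above the other arrays, and labelled mutant 1 lay below both WT arrays for Herpud1 and Sel1l.

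The protein disulfide isomerase genes differed in size. Pdia3 read 11.92 and 11.94 in WT, 11.92 in labelled mutant 1, 12.51 in mutant 2 and 12.39 in mutant 3 (difference 0.52, adjusted p = 0.0527). Pdia6 read 10.61 on both WT arrays, 10.53 in labelled mutant 1, 10.94 in mutant 2 and 10.94 in mutant 3 (difference 0.33, adjusted p = 0.0677). Pdia4 differed by 0.20 (adjusted p = 0.307). The groups did not overlap over 4 arrays in any of the 3 genes, which held for 57.2% of all genes too, and none passed.

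Among the chaperones, Hspa5, the gene of BiP, read 12.73 and 12.77 in WT, 12.77 in labelled mutant 1, 13.14 in mutant 2 and 13.04 in mutant 3 (difference 0.34, adjusted p = 0.0824). One of its other probe sets gave 0.21 and the other -0.11. The lectin chaperone gene Canx read 12.45 and 12.41 in WT, 12.43 in labelled mutant 1, 12.52 in mutant 2 and 12.43 in mutant 3, a difference of 0.05 with a 95% interval from -0.16 to 0.26. Calr, the other lectin chaperone, and Hsp90b1, the gene of GRP94, differed by 0.20 and 0.13, with mutant 2 above WT in both and mutant 3 at 0.02 and 0.00 from the WT mean. Edem1, which acts in degradation of glycoproteins, differed by 0.14 and was highest in mutant 3. The 5 members whose promoter matched the ER stress response element were Hspa5, Pdia6, Calr, Hsp90b1 and Canx, with differences of 0.34, 0.33, 0.20, 0.13 and 0.05.

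Mutants 2 and 3 varied more among themselves than the WT arrays did. The median gap between mutants 2 and 3 over the 39 members was 0.169, against 0.04 between the WT arrays. Mutant 2 was the higher of the pair for 25 members, and 10 members had a gap of more than 0.3. The median gap was 0.139 for the regulators, 0.219 for the amino acid enzymes, 0.221 for the synthetases and 0.239 for the ER genes.

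**Figure D3:**
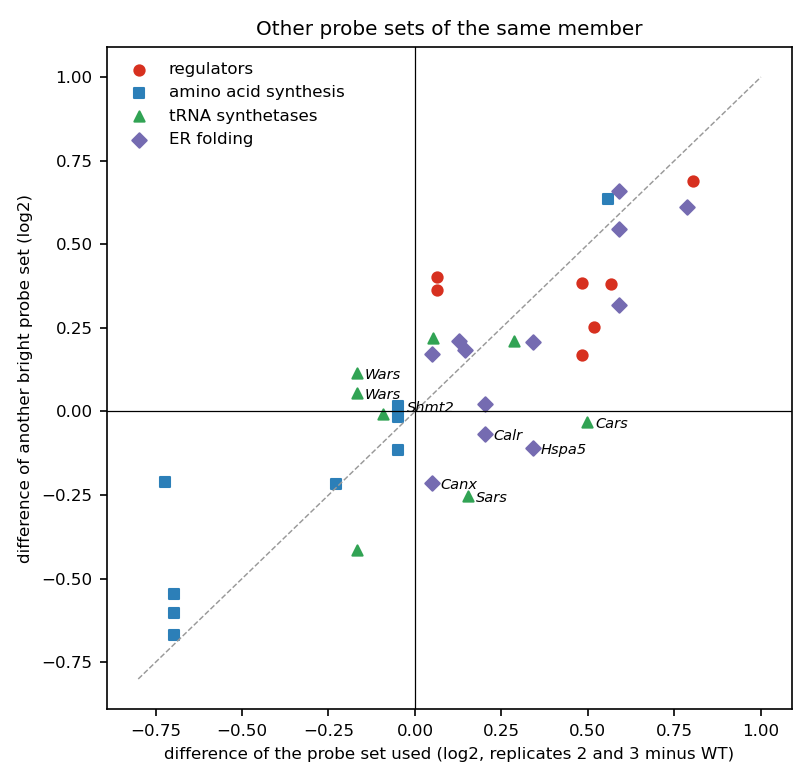
Difference (log2, mutants 2 and 3 minus WT) of the probe set used for a member against that of each other bright probe set of the same member, 36 in all, coloured by group. The dashed line marks equal values, and 28 of the 36 share the sign of the probe set used, while the 8 labelled points of Calr, Canx, Cars, Hspa5, Sars, Shmt2 and Wars do not.

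Other probe sets bore on these readings. Of the 39 members 27 had more than 1 probe set, and for 23 at least 1 other was bright. Among these 36 other bright probe sets 28 had the same sign as the one used and 8 the opposite, in 7 members. Of the members that rose, Atf4 and Herpud1 had another bright probe set, with the same sign, and Atf5 and Cth had only 1 probe set.

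Other genes of the same pathways were listed for comparison, 122 in 6 lists, of which 114 were measured and 112 were bright enough for the 4-array test. Over 5 arrays 0 passed. Over 4 arrays 6 rose and 1 fell, 6.25% against 4.64% of all genes. Like the 4 members, these 7 genes passed neither with array weights, nor without the filter on dim genes, nor without either WT array.

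Among 23 other regulators 3 rose (13%, against 3.29% of all genes) and 0 fell (against 1.34%). Cebpb, whose product pairs with ATF4 on composite sites, read 10.68 and 10.78 in WT, 10.66 in labelled mutant 1, 11.49 in mutant 2 and 11.37 in mutant 3 (difference 0.70, adjusted p = 0.0455). Ern1, which encodes IRE1, read 8.42 and 8.39 in WT, 8.34 in labelled mutant 1, 9.01 in mutant 2 and 8.92 in mutant 3 (0.56, adjusted p = 0.0476), and did not pass with the mean of its probe sets, which gave 0.17. The stress-induced Nupr1 read 9.67 and 9.82 in WT, 9.76 in labelled mutant 1 and 10.38 in both mutants 2 and 3 (0.64, adjusted p = 0.048). Cebpb with the mean of its probe sets (0.45) or without mutant 2, and Nupr1 without mutant 2 or without mutant 3, did not pass. The groups of 4 arrays did not overlap in these 3 genes, against 57.2% of all genes. Since the 3 were named for passing on those arrays, this adds nothing to their calls.

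Of 15 other amino acid and one-carbon enzymes 1 rose (6.67%, against 3.29% of all genes) and 0 fell (against 1.34%). This was Aldh1l2, a mitochondrial folate enzyme, with 7.94 and 7.88 in WT, 8.01 in labelled mutant 1, 8.98 in mutant 2 and 9.14 in mutant 3 (2.22-fold, difference 1.15, SE 0.09, adjusted p = 0.042). In that gene mutants 2 and 3 lay above the other 3 arrays. Among 33 other ER folding and degradation genes 2 rose (6.06%, against 3.29% of all genes) and 0 fell (against 1.34%). The oxidase gene Ero1l read 12.20 and 12.26 in WT, 12.23 in labelled mutant 1, 13.31 in mutant 2 and 13.18 in mutant 3 (2.02-fold, adjusted p = 0.042). Ube2j1, a ubiquitin-conjugating enzyme of ER-associated degradation, read 8.33 and 8.36 in WT, 8.29 in labelled mutant 1, 9.15 in mutant 2 and 9.03 in mutant 3 (1.68-fold, adjusted p = 0.042). The median of that list was 0.23, and 22 of the 33 (66.7%) lay above WT without overlap, against 35.2% of all genes.

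No other synthetase passed over 4 arrays, where 4.64% of all genes did. Of 11 other cytosolic synthetase genes, with scaffold proteins of their complex counted in, 0 passed, 9 differences were negative and the median was -0.36, against 0.05 over all genes. Vars, for valine, had the smallest p, with 9.35 and 9.47 in WT, 9.40 in labelled mutant 1, 9.05 in mutant 2 and 8.85 in mutant 3 (-0.46, adjusted p = 0.0857). Of 15 mitochondrial synthetase genes 0 passed, with a median of -0.13. There the smallest p was that of Yars2, for tyrosine, with 8.76 and 8.96 in WT, 8.79 in labelled mutant 1, 8.54 in mutant 2 and 8.32 in mutant 3 (-0.43, adjusted p = 0.122). Of 15 amino acid transporter genes 0 rose (against 3.29% of all genes) and 1 fell (6.67%, against 1.34%), the cationic amino acid transporter gene Slc7a3. It read 11.46 and 11.45 in WT, 11.46 in labelled mutant 1, 9.84 in mutant 2 and 10.24 in mutant 3 (2.67-fold lower, adjusted p = 0.0422). The median of the transporters was -0.01.

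**Figure D4:**
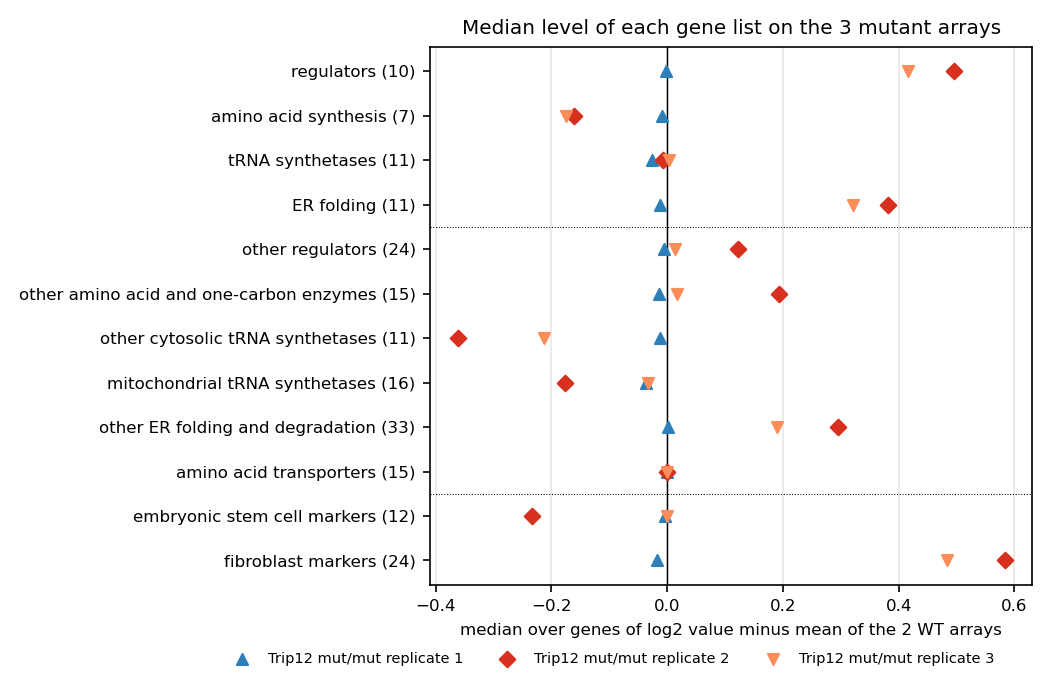
Median over the genes of each list of the log2 value minus the mean of the 2 WT arrays, on the 3 mutant arrays, with the number of measured genes in brackets. Labelled mutant 1 stays near 0 in every list, while the member regulators and both ER lists lie at positive values in mutants 2 and 3 (0.50 and 0.42 for the regulators) beside the fibroblast markers (0.58 and 0.48).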

How the data were processed

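The deposited values are log2 values, 1 per probe set and array, made with RMA (background correction, normalisation between arrays and summary per probe set) per the submitters' processing notes. The sources used here give no RMA version. Scanner files and detection calls were not used, so a shift shared by all transcripts cannot be seen, and the number of arrays limits precision. Array medians lay between 5.51 and 5.55. Of 45101 probe sets 64 were controls, and 34945 of the other 45037 carried 1 symbol, 932 several (not used) and 9160 none. Symbols were updated by gene number through RefSeq names of GRCm38.p6 for 34741, which gave 18193 genes.

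Each gene was tested on the log2 scale by limma 3.58.1 (lmFit and eBayes in R 4.3.3, genotype as sole term, two-sided), with Benjamini-Hochberg adjustment over all genes and a threshold of 0.05. Differences are Trip12 mut/mut minus WT. The 4-array comparison kept genes with at least 2 arrays above 5.52, the median of all probe sets. The fit was tested on simulated data with known changes. Of 100 changes of 1 on the log2 scale it recovered 57 over 5 arrays and 58 over 4. Of 100 changes of 2 it recovered 94 and 83, with 7 and 4 false calls. Smaller changes were not simulated, and no member difference reached 1, so a member that did not pass may still differ. In the measured values over 5 arrays the smallest adjusted p of all 18193 genes was 0.748 (limma). Trip12, with a difference of 1.41 there, also had an adjusted p of 0.748. Whether the recovery counts hold for the 5 measured arrays, where labelled mutant 1 lay with WT, was not tested. The members, lists and comparisons were chosen with earlier results of these data known. Arrays are printed in full for the 6 transcription factor genes, and in each group for the 4 members with the smallest p and the most negative difference over 4 arrays. In each other list up to 3 genes past the threshold are named, or the 1 with the smallest p. Values of Dnajb9, Psph, Mthfd2 and the other members were added after they were seen. Alternatives were other normalisations, probe set rules, variance models, filters and samples left out. Figures used matplotlib 3.10.9.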

Additional observations from a re-analysis of the deposited data

How the results depend on the processing

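The count of members passing over 5 arrays was 0 under all 13 alternatives, the replicate block included, where 0 passed. Same-numbered arrays did not deviate together (r = -0.0429 and -0.0772), so the numbers are not treated as pairs. The block could not be fitted over 4 arrays, which leaves no residual degrees of freedom. Over 4 arrays the count of 4 became 11 with quantile normalisation, 12 with centred medians, 8 with a variance trend and robust estimation, 13 with probe sets averaged per gene, 0 with array weights and 0 without the filter on dim genes. Of all genes 998, 1190, 744, 1461, 0 and 0 passed there, against 539. The count over all genes was 0 without either WT array, 2685 without mutant replicate 2 and 4934 without mutant replicate 3. The count of members ranged from 0 (without either WT array) to 23 (without mutant replicate 3) with each array left out. The synthetase median over 5 arrays was -0.0437 with array weights, -0.0492 with the mean of probe sets, -0.0038 with the replicate block, and -0.0965 to 0.0023 with each array left out. Over 4 arrays it was -0.108 with centred medians, -0.0503 with the mean of probe sets and -0.119 to 0.0023 with each array left out. The amino acid median was -0.263 with quantile normalisation, -0.247 with centring and -0.231 to -0.16 with each array left out. With the mean of probe sets the medians of regulators and ER genes were 0.384 and 0.164, and they ranged from 0.416 to 0.496 and from 0.32 to 0.382 with each array left out. Direction changed for Sars (5 arrays, -0.0492 with the mean of probe sets and -0.167 with the most variable one; 4 arrays, -0.0499 and -0.252), Canx (most variable probe set, -0.142 and -0.213) and Xbp1 (-0.048 with the replicate block, -0.048 to 0.133 over 5 arrays and -0.116 to 0.245 over 4 with each array left out, the low values without mutant replicate 3). These 3 genes passed in none of those settings, and the cause was not tested.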

Other observations

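Primitive endoderm is a further cell type that stem cell cultures can hold. Of 10 of its markers measured 6 were bright enough for the 4-array comparison, and 1 of these rose (16.7%, against 3.29% of all genes), Col4a1, which fibroblasts also express. The differences of all 6 bright markers were positive, against 57.3% of all genes, with a median of 0.33. An unadjusted limma p below 0.05 was found for 4 of the 6 (66.7%), against 19.8% of all genes higher in the mutant. Dab2, Lama1 and Gata6 were higher by 0.57, 0.43 and 0.23 and did not pass. Ttr and Pdgfra differed by 0.04 and 0.02. The other 4 markers were too dim for that comparison, and not all of them leaned the same way. Over the same arrays without the filter, Foxa2 and Sox17 differed by -0.84 and -0.26 and Afp by 0.26. Gata4 lay between 4.42 and 4.48 on all 5 arrays.

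Some members had exactly the same deposited value on different arrays. This held for 14 of 39 members (35.9%) and for 10449 of 18193 genes (57.4%). Trip12 mut/mut replicates 1 and 3 shared a value for 4 members, and replicates 2 and 3 for 0.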
